A study of Mus musculus with 27 samples.

Results

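The 18 tumor regions compared here come from 27 regions of MC38 liver metastases profiled with the NanoString GeoMx Digital Spatial Profiler. They are the 9 richest and the 9 poorest in hepatocyte transcripts relative to the mean of their own group, control or knockdown. MC38 is a mouse colon carcinoma cell line, and in this study its cells were injected into the portal vein of two-month-old C57BL/6 mice, whose livers were taken 11 days later. The 14 control regions came from metastases of MC38 cells with a nontargeting shRNA, and the 13 other regions from metastases of MC38 cells with an shRNA against Cmtm6, a membrane protein gene that is knocked down in the tumor cells only. The study's text and a legend of its supplement give these counts of control and knockdown regions in opposite order, and the sample labels are followed here. The host liver, its hepatocytes included, was of the same strain in both. The areas were picked by immunofluorescence for pan-cytokeratin and desmin. The values are those of a segment named remainder and labelled as MC38, taken here as the part outside the desmin-positive segment. Each label covered metastases of 3 mice, but the labels do not tie a region to a mouse. Some regions therefore share an animal, which no p-value over regions below takes into account. These p-values may be too small, and by how much is not known.

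The sets were chosen from measured values. Each region was set to a common median over its genes, and a score was taken as the mean log2 of 5 genes of hepatocytes: Alb, Apoa1, Apoa2, Ttr and Serpina3k. The mean score of the region's label was then subtracted. The 9 highest regions are called hepatocyte-rich and the 9 lowest hepatocyte-poor, and the 9 between them middle. The hepatocyte-rich set held 3 control and 6 knockdown-labelled regions, and the hepatocyte-poor set 5 control and 4 knockdown-labelled regions. All values below are on this common scale, and a label-centred signal is the signal after the mean log2 of each label was moved to the mean of all 27 regions.

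Hepatocytes fill the liver with secreted products: albumin, apolipoproteins, fibrinogen, complement and carrier proteins leave the cell for the blood, and their mRNAs are among the most abundant of the organ. Colon carcinoma cells do not make most of them. In the liver lobule, hepatocytes near the portal vein favor gluconeogenesis and urea synthesis, and those near the central vein favor cytochrome P450 metabolism. A metastasis that grows in the liver borders on hepatocytes or encloses them, and a profiled area takes in whatever cells lie under the mask. In such mixed areas more hepatocytes and more RNA per hepatocyte cannot be told apart.

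The upstream sequences of 6 genes are shown because these genes carry the contrast. Alb is the score gene with the widest spread, and Fga, Fgb, Hpx, Ahsg and Fabp1 were the genes outside the score whose levels did not overlap between the sets. Each line gives the 250 bases before the RefSeq start site (GRCm38.p6), 5′ to 3′ on the strand of the gene, with matches to the motifs given next in capitals.
Alb, chr5:90460620-90460869, plus strand: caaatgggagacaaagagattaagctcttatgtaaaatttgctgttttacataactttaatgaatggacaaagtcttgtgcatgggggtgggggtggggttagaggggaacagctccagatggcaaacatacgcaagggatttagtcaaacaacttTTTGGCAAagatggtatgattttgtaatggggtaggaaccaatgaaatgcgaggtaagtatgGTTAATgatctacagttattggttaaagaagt
Fga, chr3:83025903-83026152, plus strand: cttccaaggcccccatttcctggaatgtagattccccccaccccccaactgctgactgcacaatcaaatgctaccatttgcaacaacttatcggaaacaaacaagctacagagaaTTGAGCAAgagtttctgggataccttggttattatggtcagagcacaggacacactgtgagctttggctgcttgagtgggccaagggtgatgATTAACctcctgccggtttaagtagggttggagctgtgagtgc
Fgb, chr3:83049864-83050113, minus strand: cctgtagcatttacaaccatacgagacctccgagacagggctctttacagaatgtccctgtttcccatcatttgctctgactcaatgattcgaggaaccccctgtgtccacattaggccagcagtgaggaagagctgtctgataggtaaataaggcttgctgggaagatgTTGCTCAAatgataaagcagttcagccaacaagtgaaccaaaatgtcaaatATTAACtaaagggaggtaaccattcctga
Hpx, chr7:105600117-105600366, minus strand: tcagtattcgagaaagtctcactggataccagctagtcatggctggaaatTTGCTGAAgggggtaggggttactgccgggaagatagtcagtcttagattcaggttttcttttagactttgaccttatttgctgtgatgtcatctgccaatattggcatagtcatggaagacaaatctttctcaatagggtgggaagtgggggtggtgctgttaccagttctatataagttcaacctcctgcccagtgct
Ahsg, chr16:22891765-22892014, plus strand: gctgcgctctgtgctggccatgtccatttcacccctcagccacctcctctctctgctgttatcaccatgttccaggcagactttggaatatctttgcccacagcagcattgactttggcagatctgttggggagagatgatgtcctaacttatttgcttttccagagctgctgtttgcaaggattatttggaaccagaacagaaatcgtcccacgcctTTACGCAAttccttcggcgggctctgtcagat
Fabp1, chr6:71199629-71199878, plus strand: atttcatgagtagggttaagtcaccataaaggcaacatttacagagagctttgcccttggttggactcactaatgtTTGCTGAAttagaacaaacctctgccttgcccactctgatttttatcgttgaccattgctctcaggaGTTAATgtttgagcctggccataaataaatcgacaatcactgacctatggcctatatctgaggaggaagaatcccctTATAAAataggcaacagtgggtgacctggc

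Motifs of liver, sterol and basal promoters were searched on both strands: TATAAA, the HNF1 element GTTAAT, the C/EBP palindrome TTGCNNAA, the HNF4 core CAAAGTCCA and the sterol element TCACNCCAC. No matches overlap in the lines above. TTGCNNAA was found in each of the 6 lines and in 2582 of 27025 upstream sequences of the same length (9.55%). GTTAAT was found for Alb, Fga, Fgb and Fabp1, and in 6.52% of all upstream sequences. TATAAA was found for Fabp1 alone of the 6, and in 13.0% of all. CAAAGTCCA and TCACNCCAC were found in none of the 6, and in 0.381% and 1.04% of all. Of 36 matched genes of the hepatocyte plasma protein list, 11 held TTGCNNAA (30.6%) and 10 held GTTAAT (27.8%). Of 18 matched genes of the cholesterol and fatty acid synthesis list, 2 held TTGCNNAA (11.1%) and 3 held GTTAAT (16.7%). A match of letters is not a binding site, and a missing match says nothing of the factor.

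The scores ran from 1.59 in knockdown-labelled region 18 to -1.72 in knockdown-labelled region 25. The last region inside the hepatocyte-rich set, control region 7, had 0.222, and the first outside it, control region 9, had 0.218. On the other side control region 8 with -0.168 was the last inside and control region 2 with -0.145 the first outside. The limits of both sets therefore fell between regions of nearly equal score. The highest scores were those of regions 18, 6, 19 and 28 (1.59, 1.10, 0.88 and 0.64), and the lowest those of regions 25 and 26 (-1.72 and -1.60).

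**Figure D1:**
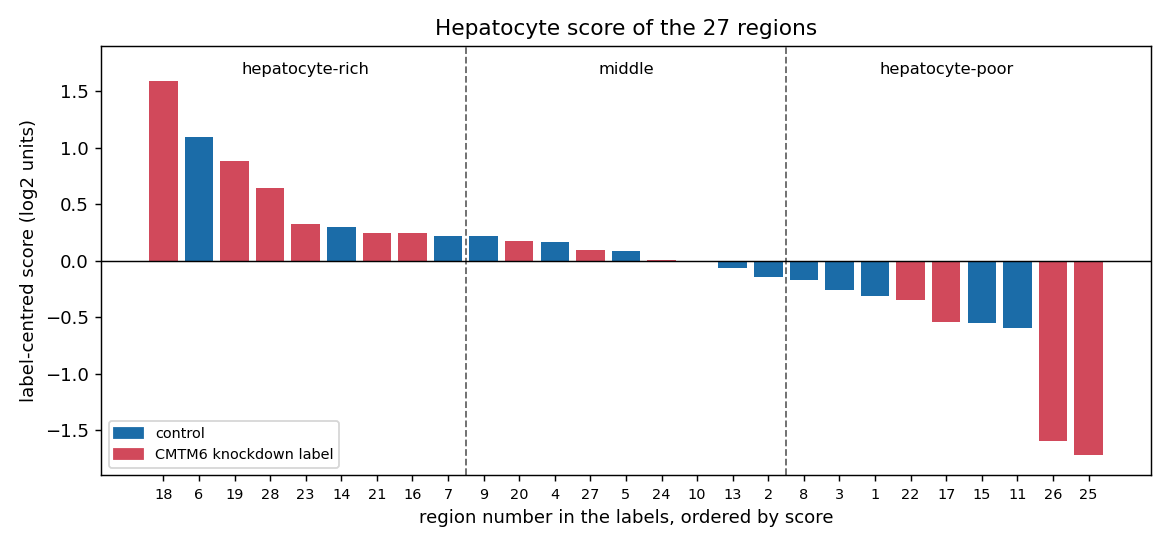
Label-centred hepatocyte score (log2 units) of the 27 regions in falling order, blue for control and red for knockdown-labelled regions, with dashed lines at the limits of the sets. The scores run from 1.59 to -1.72, with regions 25 and 26 far below the others.

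The score genes themselves are a description, since they chose the sets. Alb, the main plasma protein, had a common-scale signal of 385 to 1185 in the 3 hepatocyte-rich control regions and 176 to 236 in the 5 hepatocyte-poor ones. In the knockdown-labelled regions it was 1325 to 4269 in the 6 hepatocyte-rich and 157 to 748 in the 4 hepatocyte-poor regions. Rich and poor thus hold within a label only: hepatocyte-rich control region 7 had an Alb signal of 385, below the 620 and 748 of hepatocyte-poor knockdown-labelled regions 17 and 22. Apoa1, the main protein of high-density lipoprotein, was 244 to 725 against 126 to 203 in control regions and 539 to 1612 against 122 to 364 in knockdown-labelled regions. Ttr, the thyroxine carrier, reached only 187 in hepatocyte-rich control regions. A gene was taken as above background when its mean log2 exceeded that of 95% of 1125 receptor genes that these cells should lack, a limit that corresponds to a signal of 197. Several score genes of control regions were thus at or under that level. The difference of label-centred means between the sets was 2.04 on the log2 scale for Alb, 1.55 for Apoa1, 1.13 for Serpina3k, 0.88 for Apoa2 and 0.87 for Ttr.

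Depth overlapped between the sets. The values fall on whole multiples of a step, and the total in steps was 4223031 to 25209342 in the hepatocyte-rich and 10513715 to 26328208 in the hepatocyte-poor regions. The mean log2 total, centred within label, differed by -0.23 (exact permutation test, two-sided, p = 0.444, n = 9 and 9), and the mean level of the receptor genes by 0.02 (exact permutation p = 0.615, n = 9 and 9). Des, the gene of the desmin that labelled fibroblasts, differed by 0.07 (exact permutation p = 0.342, n = 9 and 9). The log2 upper quartile on the common scale differed by -0.08 (exact permutation p = 0.108, n = 9 and 9). The spread (SD) of log2 values over genes differed by -0.04 (exact permutation p = 0.228, n = 9 and 9). Of the defining epithelial markers of the tumor cells, Krt8 was above background with 211 to 387 in the 27 regions, whereas Krt18, Krt19 and Epcam were not above it. Cmtm6 had 511 to 701 in control and 417 to 722 in knockdown-labelled regions, so its levels overlapped between the labels.

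Across the 19610 genes outside the score, limma with Benjamini-Hochberg adjustment called 0 genes higher and 0 lower in the hepatocyte-rich regions (0% of the genes tested in either direction), with a smallest adjusted p of 0.284. An exact rank-sum test also called 0, with a smallest adjusted p of 0.161. At an unadjusted p under 0.05, limma gave 414 genes higher (2.11%) and 1093 lower (5.57%), and the rank-sum test 1390 in all. Hepatocyte genes were frequent among the higher ones: of 205 tested genes in the hepatocyte lists, 67 were higher and 2 lower at that unadjusted level. The lists overlap, and these genes share their source with the score genes, so a positive sign among them is no separate evidence that the sets differ. The median log2 difference over all genes was -0.03.

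Secreted liver proteins were among the genes with large positive differences. Hpx, the heme carrier hemopexin, had label-centred signals of 216 to 1298 (median 282) in the hepatocyte-rich regions and 77.5 to 195 (median 150) in the hepatocyte-poor ones. Its log2 fold change was 1.40 (SE 0.32, adjusted p = 0.362 by limma). The fibrinogen chain gene Fga was at 204 to 636 (median 283) against 90.4 to 198 (median 158), a log2 fold change of 1.15 (SE 0.23, adjusted p = 0.284 by limma). All 9 hepatocyte-rich regions lay above all 9 hepatocyte-poor regions in both genes.

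The other 2 fibrinogen chains had the same sign as Fga. Fgb had 194 to 710 (median 260) against 99.5 to 172 (median 161), a log2 fold change of 1.00 (SE 0.23, adjusted p = 0.362 by limma), and Fgg had 0.89 (SE 0.21, adjusted p = 0.362 by limma). Ahsg, which encodes the mineral-binding fetuin-A, was at 240 to 775 against 105 to 219, with a log2 fold change of 1.06 (SE 0.22, adjusted p = 0.284 by limma). Fabp1, the fatty acid carrier of the hepatocyte cytosol, was at 196 to 385 (median 222) against 84.9 to 182 (median 154), with 0.81 (SE 0.15, adjusted p = 0.284 by limma). In the hepatocyte-poor set the lowest Fabp1 signals were those of regions 25 and 26. All 9 hepatocyte-poor values of Hpx, Fgb and Fabp1 lay under the background limit of 197, as did the poor medians of Fga, Fgg and Ahsg, and the mean level of Fabp1 over all regions was itself not above background. These fold changes are therefore taken against levels that cannot be told from background, and their sizes are not exact. In all, 5 genes did not overlap between the sets in the higher direction, Ahsg, Fabp1, Fga, Fgb and Hpx, and 0 in the lower direction, which is 0.0255% and 0% of the genes tested.

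Mup13, a major urinary protein gene, stood at a far higher level, with 1238 to 5226 (median 2144) against 628 to 1511 (median 1225). Its log2 fold change was 1.22 (SE 0.27, adjusted p = 0.349 by limma). Its relatives are nearly the same in sequence, so the value is uncertain and may hold several of them. Trf, transferrin, the iron carrier of plasma, was at 258 to 1122 (median 304) against 115 to 319 (median 193), with 1.07 (SE 0.28, adjusted p = 0.420 by limma). C3, the central complement protein, which macrophages and fibroblasts make as well, was at 468 to 1350 (median 992) against 403 to 680 (median 536), a log2 fold change of 0.85 (SE 0.18, adjusted p = 0.284 by limma). Prothrombin, from F2, had 0.39 (SE 0.09, adjusted p = 0.284 by limma). Without knockdown-labelled region 21 the difference of C3 was 0.97 and passed the test (limma adjusted p = 0.016), as did those of H2-Q6 (0.51, adjusted p = 0.0246), Itih4 (0.53, adjusted p = 0.0386) and Plekhh3 (-0.40, adjusted p = 0.0128). That was the fit with the most calls among those that left out 1 region, with 7 genes higher and 2 lower.

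**Figure D2:**
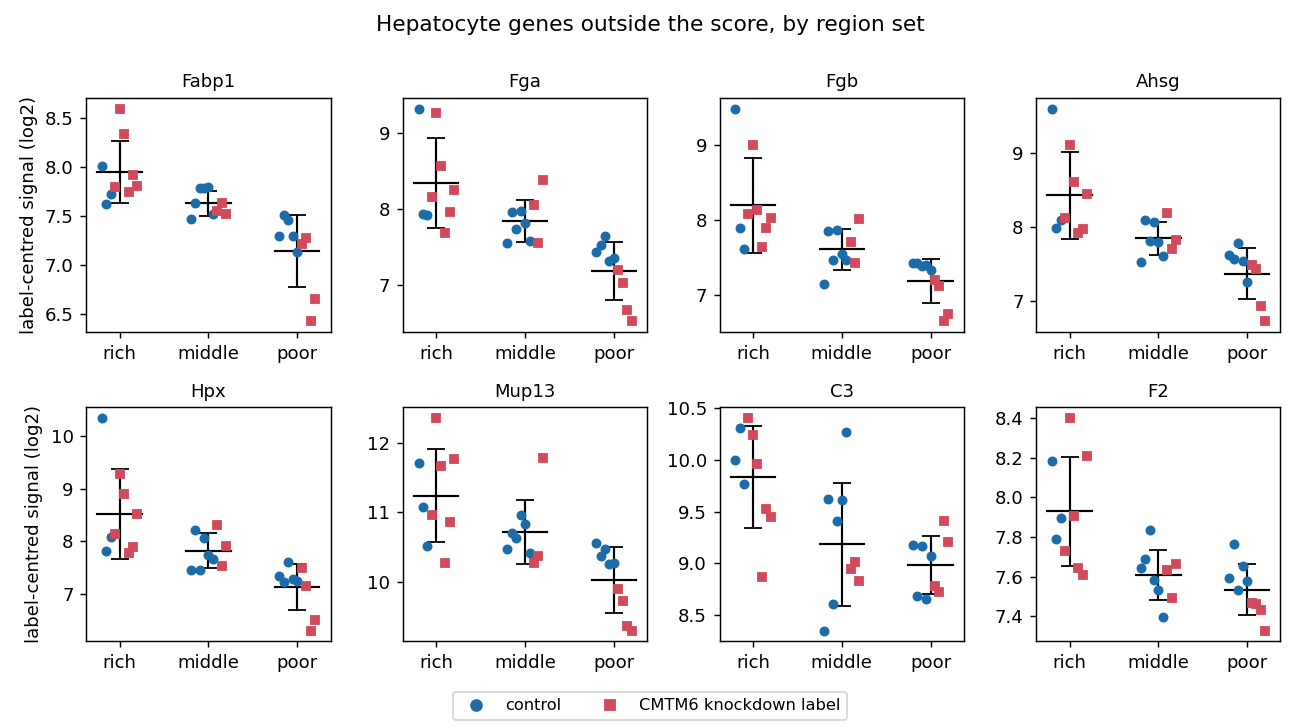
Label-centred log2 signal of 8 hepatocyte genes outside the score in the 9 hepatocyte-rich, 9 middle and 9 hepatocyte-poor regions. Each point is 1 region (blue circles control, red squares knockdown-labelled), the long bar is the mean and the whiskers are 1 SD. Fabp1, Fga, Fgb, Ahsg and Hpx show no overlap between the rich and the poor set, and control region 6 is the highest point for Hpx at 1298 before the log.

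The hepatocyte lists were read by function. Of 41 measured plasma protein genes, 39 had a positive fold change and 29 were higher at an unadjusted p under 0.05, and the list's median was 0.33, against -0.03 for all genes. Of 26 acute-phase genes, which the liver raises in inflammation, 24 were positive and 12 passed that unadjusted level (median 0.18). Of 52 metabolic enzyme genes, 42 were positive and 12 passed it (median 0.11). Of 17 uptake and export transporter genes 2 passed it (median 0.11), and of 20 hepatocyte transcription factor genes 2 were higher and 1 lower, with a median of -0.01. Over all genes tested, 2.11% were higher at that level, and of all genes at or under background 41.7% were negative. Only 13 of the 41 plasma protein genes and 9 of the 52 enzyme genes were above background, so the sizes of these medians depend on how background is treated. After background subtraction the median was 1.43 for plasma proteins, 0.59 for acute-phase genes and 0.37 for enzymes, and the lists cannot be ranked by their medians.

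Genes of both ends of the liver lobule were among the positive ones. Of 16 periportal genes, 12 were positive (median 0.12), and the urea cycle enzyme Cps1 was at 112 to 175 against 100.3 to 144, under the background limit in both sets. Of 19 pericentral genes, 13 were positive (median 0.06), while Axin2 (-0.20) and Oat (-0.12) were negative. Only 5 of the 16 periportal and 2 of the 19 pericentral genes were above background. Of all genes at or under background, only 41.7% were negative, so no result about the zones is read from these counts. Cyp2e1, the ethanol-oxidizing cytochrome of pericentral hepatocytes, was at 123 to 544 (median 206) against 96.1 to 182 (median 144), a log2 fold change of 0.75 (SE 0.25, adjusted p = 0.543 by limma). Both medians of Cyp2e1 lie near the background limit.

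Outside the hepatocyte lists, the smallest p-values among genes above background went with small differences, and 0 of the following 24 genes passed the adjusted test (limma adjusted p between 0.284 and 0.521). The higher genes were led by H2-Q6, a class I-like histocompatibility gene with near-identical relatives, at 455 to 829 (median 668) against 350 to 598 (median 511), a log2 fold change of 0.44 (SE 0.10, adjusted p = 0.284 by limma). Genes that liver also makes followed: Ephx1, the microsomal epoxide hydrolase, at 0.25, Pzp, a plasma protease inhibitor of mice, at 0.49, and Phyh, a peroxisomal enzyme of phytanic acid breakdown, at 0.29. Lifr, the receptor of leukemia inhibitory factor, had 0.31, and the smooth muscle gene Tagln 0.36. Pbxip1, Lmo2, Sorl1, Arrdc3 and Vopp1 lay between 0.19 and 0.29.

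Col1a2, a chain of collagen I, had the largest difference of the non-hepatocyte genes named by this rule. Its label-centred signal was 1241 to 3376 (median 2009) in the hepatocyte-rich and 721 to 1952 (median 1060) in the hepatocyte-poor regions, a log2 fold change of 0.78 (SE 0.24, adjusted p = 0.513 by limma). The middle regions ran from 805 to 4589, wider than either set. Col3a1, the chain of collagen III, went the other way, with 7539 to 20701 (median 12471) against 11920 to 25123 (median 18652) and a log2 fold change of -0.50 (SE 0.17, adjusted p = 0.532 by limma). Of 25 stellate cell and fibroblast genes, 15 were positive and 10 negative (median 0.05), and of 26 collagen and matrix genes 12 and 14 (median -0.01).

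The lower genes were led by Plekhh3, at 696 to 1065 (median 777) against 912 to 1093 (median 1012), a log2 fold change of -0.35 (SE 0.07, adjusted p = 0.284 by limma). Fkbp5, a co-chaperone of the glucocorticoid receptor, was at 1065 to 1595 (median 1271) against 1412 to 2632 (median 1668), with -0.51 (SE 0.12, adjusted p = 0.284 by limma). All 9 hepatocyte-rich regions were below the mean of the hepatocyte-poor ones in Fkbp5, and regions 25 and 26 were the highest of the 27. The remaining 10 were A430005L14Rik at -0.24, Nhs at -0.50, Ssbp4 at -0.30, Cox15, which makes heme A, at -0.28, the transcription factor gene Creb3l2 at -0.37, the insulin-degrading enzyme Ide at -0.29, Fam111a at -0.31, the RNA exosome subunit Exosc1 at -0.27, the transcription factor gene Tcf12 at -0.43 and Stn1, of a telomere-capping complex, at -0.30.

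Genes of cholesterol and fatty acid synthesis leaned lower. The pathway is switched on by SREBP factors when sterols run low. Of 27 measured genes, 26 were negative, as were 78.4% of all genes above background. At an unadjusted p under 0.05, 16 were lower, as were 5.57% of all genes tested and 1012 of 10795 genes above background. None of the 27 passed the adjusted test, and 0 fell with the score as a continuous term over all 27 regions. The list's median was -0.37, against -0.03 for all genes and -0.07 for those above background. Srebf2, which encodes the sterol-sensing factor, was at 1995 to 5000 (median 2859) against 3297 to 4366 (median 3834), a log2 fold change of -0.37 (SE 0.12, adjusted p = 0.513 by limma). Region 21 held the highest Srebf2 signal of the 27, and 8 of the 9 hepatocyte-rich regions lay below the mean of the hepatocyte-poor ones. Hsd17b7, a late enzyme of cholesterol synthesis, had -0.42 (SE 0.14, adjusted p = 0.535 by limma), Fasn, the fatty acid synthase, -0.36 (SE 0.14, adjusted p = 0.624 by limma) and the desaturase Scd2 -0.30 (SE 0.22, adjusted p = 0.735 by limma). The list's median was -0.25 within the control and -0.53 within the knockdown-labelled regions, and it stayed negative under each scaling tried, from -0.28 with housekeeping scaling to -0.40 with background subtraction. Of 18 of these genes with an upstream sequence, 1 held the sterol element TCACNCCAC (5.56%), against 1.04% of all upstream sequences.

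Highly expressed genes in general leaned lower. Among the 3922 genes with the highest mean level, 89.2% had a negative fold change (median -0.10), whereas among the 3922 with the lowest 38.7% did (median 0.02). Of 29 DNA replication genes, 29 were negative (median -0.18), with E2f2, an S-phase transcription factor, at -0.25 and Ccne2, cyclin E2, at -0.21. Of 30 genes of mitosis 29 were negative (median -0.14), of 36 respiratory chain genes 35 (median -0.15) and of 81 cytosolic ribosomal protein genes 76 (median -0.10). Among these 4 lists 0 genes passed the adjusted test. The common median sets this balance. Of the genes at an unadjusted p under 0.05, 27.5% were higher on the common scale, but 79.9% with equal upper quartiles, 75% with equal totals, 58.8% with TMM, 46.6% after quantile normalization, 90.0% with housekeeping scaling and 17.2% after background subtraction. The 4 lists kept a negative median under these scalings, from -0.09 to -0.20 for DNA replication, from -0.05 to -0.16 for mitosis, from -0.05 to -0.15 for the respiratory chain and from -0.01 to -0.11 for ribosomal proteins. Their medians were lower within control than within knockdown-labelled regions: -0.37 and -0.07 for DNA replication, -0.34 and -0.01 for mitosis, -0.23 and -0.08 for the respiratory chain and -0.20 and -0.04 for ribosomal proteins, a difference that was not tested for the lists. Over all 27 regions the median slope on the score was -0.05 for DNA replication, -0.02 for mitosis, -0.04 for the respiratory chain and 0.00377 for ribosomal proteins.

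Markers of other cells of the liver and of the immune system were mostly positive, with small differences. Of 28 macrophage and monocyte genes 25 were positive (median 0.12), with the summed signal at 29000 to 91780 in the hepatocyte-rich and 27650 to 46630 in the hepatocyte-poor regions. That median was -0.12 within control and 0.27 within knockdown-labelled regions, so its sign depended on the label. Of 16 Kupffer cell genes, the resident macrophages of the liver, 14 were positive (median 0.11, sums of 3712 to 6958 against 3364 to 5286), and 4 of the 16 were above background. Of 28 T and NK cell genes 26 were positive (median 0.10, sums of 5454 to 9035 against 4366 to 7348), and 12 of the 28 were above background. Of the 28 macrophage and monocyte genes 26 were above it. Of all genes at or under background 41.7% were negative, and of those above it 78.4%. No result about the cells is therefore read from the counts of the Kupffer cell and the T and NK cell lists. In the macrophage list 1 gene, in the Kupffer cell list 2 and in the T and NK cell list 3 were higher at an unadjusted p under 0.05, against 2.11% of all genes tested. Liver sinusoidal endothelial genes had a median of 0.03, cholangiocyte genes 0.02 and B and plasma cell genes 0.02. With the T and NK cell mean or the macrophage mean as a covariate, 0 genes again passed the test. Over both labels the 3 medians stayed positive under each scaling tried, but after background subtraction that of the Kupffer cell list was 0.46 and that of the T and NK cell list 0.21. The part of these cells in the differences above was not tested.

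Interferon, antigen presentation, NF-kB and hypoxia genes were examined as separate lists. For the signs below, 78.4% of all genes above background were negative, and 41.7% of those at or under it. Of 36 interferon response genes 29 were positive (median 0.14) and 0 passed an unadjusted p of 0.05. Cxcl10, the interferon-induced chemokine, ran from 5082 to 33436 against 1911 to 26060, a log2 fold change of 0.37 with an SE of 0.46. The sets overlapped over most of that range. Of 10 class II antigen presentation genes 9 were positive (median 0.17), led by H2-Eb1 at 0.49 (SE 0.22, adjusted p = 0.644 by limma). Of 26 TNF and NF-kB feedback genes 16 were positive and 10 negative (median 0.04), with Nfkb2, an NF-kB subunit gene, at -0.25. Of 28 hypoxia genes 25 were positive (median 0.12), and the list's median was 0.36 within control and -0.02 within knockdown-labelled regions. The list's mean log2 level was 10.44 and 10.30 in hepatocyte-rich control regions 6 and 7. In the third, region 14, it was 9.13, below the 9.21 to 9.83 of the hepatocyte-poor control regions.

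**Figure D3:**
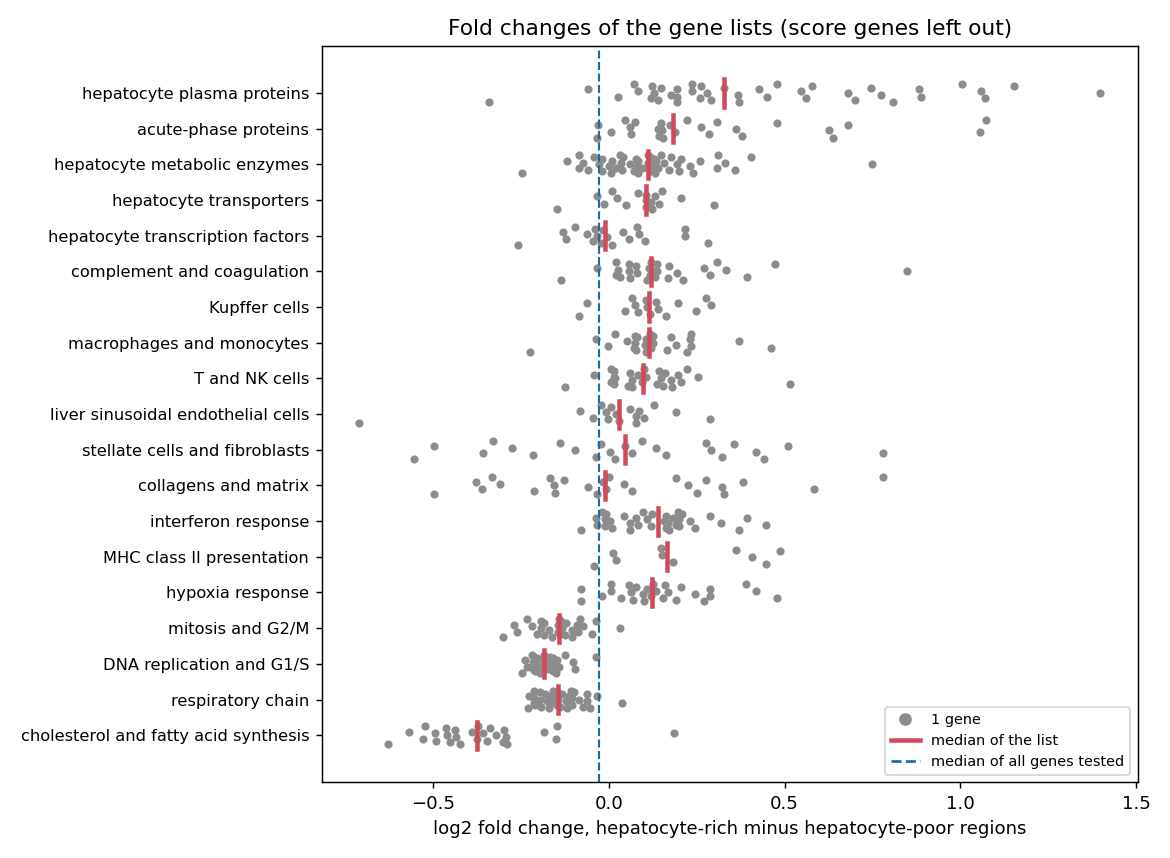
Log2 fold change between hepatocyte-rich and hepatocyte-poor regions (x axis) for the genes of 19 lists, with 1 grey point per gene, a red bar at the median of the list and a dashed blue line at the median of all genes tested, -0.03. Of these medians, that of the plasma protein list is the highest (0.33) and that of the cholesterol and fatty acid list the lowest (-0.37).

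The score is continuous, and the same question was asked of all 27 regions with the score as a continuous term, again on label-centred values. Then 75 genes rose with the score (0.382% of the genes tested) and 139 fell (0.709%; limma with Benjamini-Hochberg adjustment). All 75 and all 139 had the same sign between the 9 richest and the 9 poorest regions, which are part of the 27. Of the 75 rising genes 46 were in the hepatocyte lists, where 0 fell. Of all 75, 29 were above background, so most were at or under it. By list, 26 of 41 plasma protein genes rose, 8 of 52 metabolic enzymes, 7 of 26 acute-phase genes, 3 of 19 pericentral genes and 0 of 20 transcription factors. Of the Kupffer cell, macrophage and T and NK cell lists 0 genes rose or fell.

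Fabp1, whose mean level was not above background, had the smallest p, at 0.62 log2 per unit of score (SE 0.04, adjusted p = 5.08e-15 by limma). Apoc1, a small apolipoprotein that macrophages make too, rose by 0.56 (SE 0.04, adjusted p = 7.40e-12 by limma), Fga by 0.87 (SE 0.06, adjusted p = 7.40e-12 by limma) and Hpx by 1.07 (SE 0.10, adjusted p = 1.41e-07 by limma). Among enzymes, Cyp2e1, whose mean level was not above background either, rose by 0.63 (SE 0.09, adjusted p = 0.000265 by limma). Genes outside the hepatocyte lists were 29 of the 75, and Pzp, Phyh and the liver genes Aadac, Fgl1, Car3 and Slc27a2 were among them. Apoe, which tumor cells and macrophages make at a high level, did not pass the test (0.34, SE 0.23; adjusted p = 0.581 by limma).

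Of the 139 falling genes, 110 were above background. Fkbp5 fell by 0.40 per unit of score (SE 0.05, adjusted p = 1.67e-06 by limma), from a label-centred signal of 2632 in region 25 to 1158 in region 18. Tns1, tensin 1 of focal adhesions, fell by 0.65 (SE 0.08, adjusted p = 5.36e-06 by limma), and Eln, the elastin gene, by 0.75 (SE 0.11, adjusted p = 0.000277 by limma). Stn1 fell by 0.23 (SE 0.04, adjusted p = 0.000400 by limma). Tns1 and Eln were chosen after their values were seen. Among cell type markers, the fibroblast gene Lum fell (-0.79 per unit, limma adjusted p = 0.0454). The endothelial cadherin gene Cdh5 fell too (-0.44 per unit, limma adjusted p = 0.0411). In all, 1 of 25 stellate cell and fibroblast genes and 1 of 19 endothelial genes fell. The median slopes of these lists were 0.05 and -0.01.

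Most calls of falling genes were lost without regions 25 and 26, although the slopes changed less. Without them, 48 genes rose (0.245%) and 4 fell (0.0204%): Fkbp5 (-0.36 per unit, limma adjusted p = 0.00814), Tns1 (-0.56, adjusted p = 0.0134), Stn1 (-0.27, adjusted p = 0.00311) and Morn4 (-0.24, adjusted p = 0.0318). All 75 rising genes and all 139 falling genes kept their sign, and 41 of the 75 and 4 of the 139 passed again. The median slope of the 139 was -0.21 with and -0.19 without these regions, while their median SE went from 0.0472 to 0.0653, and 45 of the 139 were at least as steep without them. Nhs, for example, had -0.33 with and -0.35 without them (adjusted p = 0.00218 and 0.112 by limma). Without region 25 alone 34 genes fell, and without region 26 alone 31. Lum and Cdh5 no longer passed without both regions, with slopes of -0.16 and -0.24 (adjusted p = 0.801 and 0.624 by limma). Fabp1 kept its slope at 0.61 (adjusted p = 4.07e-10 by limma). Without knockdown-labelled region 18, the region of highest score, 42 genes rose and 62 fell.

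**Figure D4:**
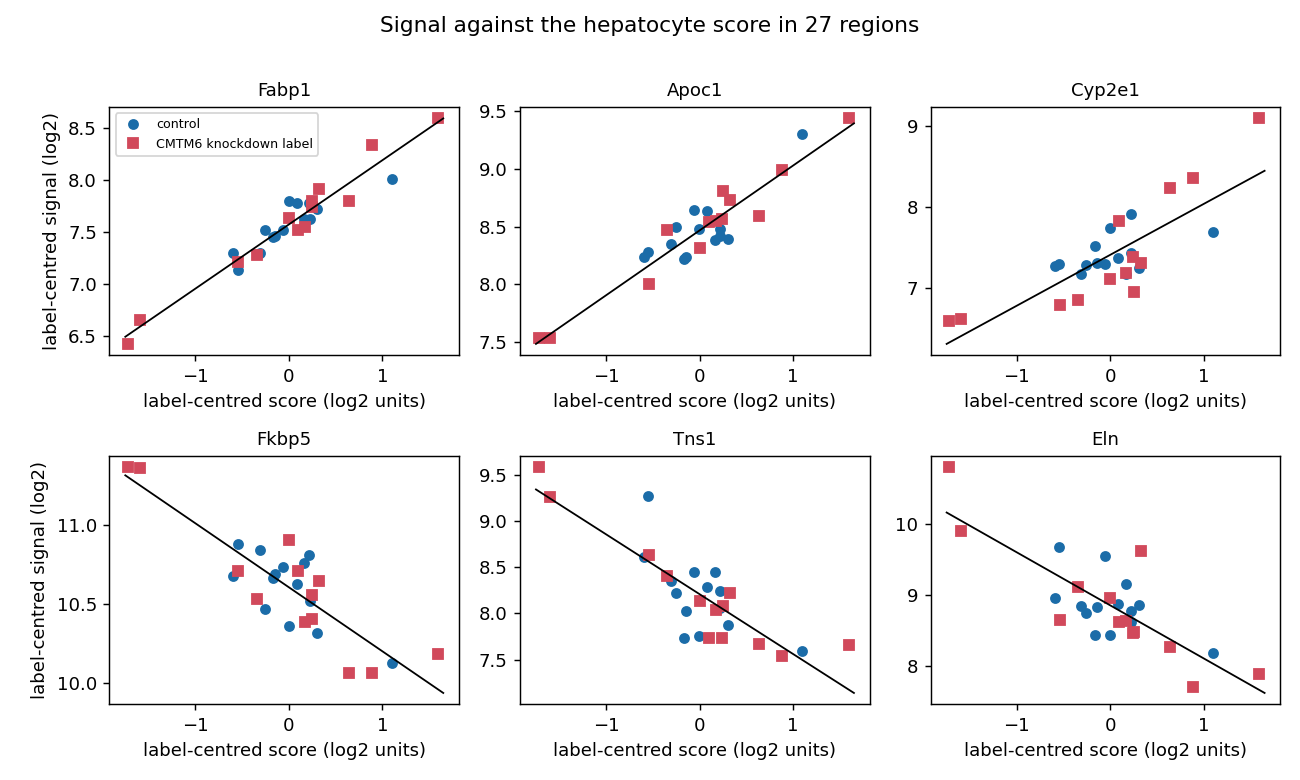
Label-centred log2 signal of 6 genes against the label-centred hepatocyte score (log2 units) in 27 regions, blue circles for control and red squares for knockdown-labelled regions, with the fitted slope as a line. Fabp1, Apoc1 and Cyp2e1 rise, at 0.62, 0.56 and 0.63 per unit of score, and Fkbp5, Tns1 and Eln fall, with regions 25 and 26 as the 2 points at the left edge.

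The regions of each label share no region with those of the other, so each label can be read on its own. In the 14 control regions 21 genes rose with the score (0.107%) and 3 fell (0.0153%). In the 13 knockdown-labelled regions 43 rose (0.219%) and 37 fell (0.189%). In both, 17 genes rose, which is 81% of the control and 39.5% of the knockdown-labelled ones: Ahsg, Ambp, Apoc1, Apoc3, Fabp1, Fga, Fgb, Fgg, Gc, Hpx, Itih4, Kng1, Mup13, Orm1, Pzp, Saa1 and Serpina1a. All but Pzp are in the hepatocyte lists, and Pzp is a liver gene of the mouse as well. The score was centred within each label, but the 5 score genes are the same in both.

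Of falling genes, 0 were called in control regions and again in knockdown-labelled regions. The 3 that fell in control regions were the caveolin gene Cav2 (-0.66 per unit of score), Gdpd5 (-0.48) and Nusap1, of a spindle protein (-0.54). In knockdown-labelled regions their slopes were 0.05, -0.04 and 0.05. Of the 37 that fell in knockdown-labelled regions, 24 were also negative in control regions, where 51.5% of all genes were negative. Tns1 had similar slopes in both, -0.67 (SE 0.22, adjusted p = 0.235 by limma) in control and -0.64 (SE 0.07, adjusted p = 3.15e-06 by limma) in knockdown-labelled regions, as did Fkbp5, -0.36 (limma adjusted p = 0.190) and -0.42 (limma adjusted p = 0.000951).

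Of 41 plasma protein genes, 37 had a positive slope in control and 38 in knockdown-labelled regions. Hpx had 1.74 (SE 0.21, adjusted p = 0.00408 by limma) in control and 0.91 (SE 0.06, adjusted p = 6.58e-09 by limma) in knockdown-labelled regions, and Ahsg 1.23 and 0.70. A test of the difference in slope between labels called 0 genes (limma; smallest adjusted p = 0.0598), with 2758 genes at an unadjusted p under 0.05 (14.1%), and gave adjusted p = 0.203 for Hpx and 0.172 for Ahsg. The same test on the 9 richest and 9 poorest regions called 0 genes, with 1113 at an unadjusted p under 0.05 (5.68%). In control regions Apoe had -0.80 (SE 0.40, adjusted p = 0.377 by limma) and in knockdown-labelled regions 0.60 (SE 0.26, adjusted p = 0.385 by limma).

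**Figure D5:**
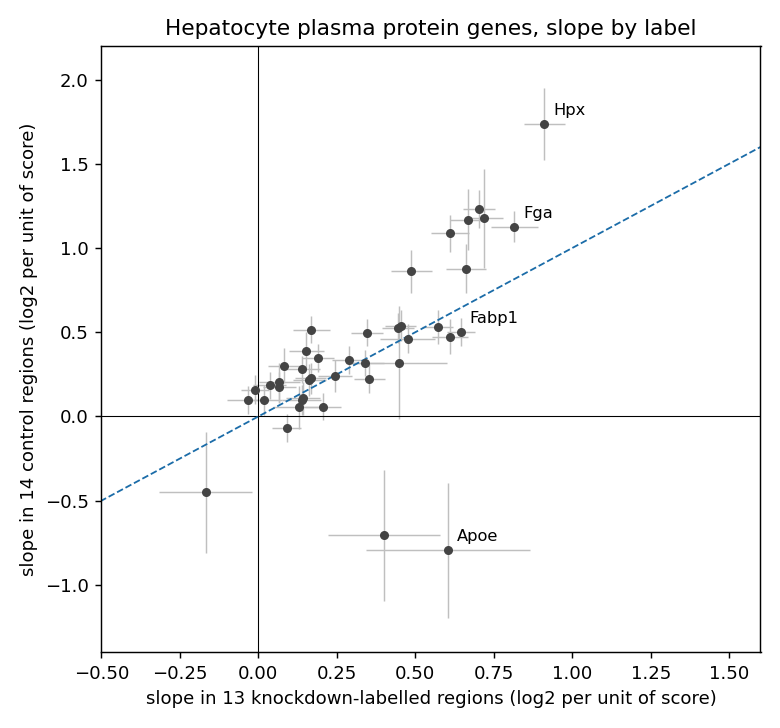
Slope on the hepatocyte score (log2 per unit of score) of 41 plasma protein genes in 13 knockdown-labelled regions (x axis) and 14 control regions (y axis), with bars of 1 SE and a dashed line of equal slopes. Most genes are positive on both axes, Hpx at 0.91 and 1.74, and Apoe is positive on the x axis only.

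The 9 middle regions were in neither set. They did enter the label means that were subtracted from all regions, so they are not a fully separate check. Their scores spanned only 0.218 to -0.145. Within them 146 of the 205 hepatocyte list genes had a positive slope (71.2%), against 44.5% of all genes tested, and 33 of the 41 plasma protein genes did. Of the 1093 genes lower at an unadjusted p under 0.05 between the sets, 790 had a negative slope there (72.3%), against 55.5% of all genes. However, 1012 of the 1093 were above background, so the share of all genes is not a matched one. Of the 139 genes that fell with the score over 27 regions, 70 were negative in the middle regions (50.4%). In level, the middle medians were between those of the sets for Fabp1 (176 to 221, median 197), Hpx (173 to 318, median 213) and Fga (185 to 330, median 224). A ranking by genes of the same cells would place them so.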

How the data were processed

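Segments named remainder, taken here as desmin-negative, were measured in 27 areas with the GeoMx Mouse Whole Transcriptome Atlas. The authors sequenced the probe tags on an Illumina instrument and processed them with the GeoMx DSP Analysis Suite (the sources used here give neither version nor genome build). The deposited values are a normalized signal of 19615 targets. Upper quartiles were equal within each label and 1.46 times higher in control regions, so the labels had been scaled separately. At least 99.985% of each region's values were whole multiples of a step (tolerance 0.01 of a step), and step totals were 4223031 to 26328208. No count model was used.

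Each region was divided by its median, brought to a common median, and log2(value + 1) was taken. Values were centred within label. limma 3.58.1 (R 4.3.3; trend and robust settings) tested 19610 targets, the 5 score genes left out, at an adjusted p of 0.05, and was tested on simulated data. The 9 highest regions were compared with the 9 lowest. The continuous score over 27 regions was an alternative listed beforehand, and was carried through the other alternatives after its result was seen. Further alternatives were the pseudocount, a filter, scalings, rankings, set sizes, covariates, a rank-sum test, each label alone and each region left out.

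The genes named were the 5 score genes, the 8 hepatocyte list genes and the 12 higher and 12 lower other genes of smallest p above background (because no gene was called), and, in lists described, the 3 of smallest p and the most abundant. A gene named outside this rule was chosen after its values were seen. Members and lists were chosen with earlier results of these data known. TMM factors came from an own implementation. Promoter sequences are RefSeq's. Ttr's sequence is not shown. Some genes that the rule named are not reported here.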

Additional observations from a re-analysis of the deposited data

Results flagged for a closer look

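Among the genes named by rule, 64 sets of 9 regions were examined for a single region far from the others (Dixon's test at 95%), and chance flags about 1 in 20. In Lmo2, a transcription cofactor gene, hepatocyte-rich knockdown-labelled region 28, the region of lowest total, had a label-centred signal of 306.8, with 200.3 to 237.1 in the other 8. In Plekhh3, hepatocyte-rich knockdown-labelled region 21 had 1065, with 695.7 to 858.4 in the other 8.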

How the results depend on the processing

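No paired analysis was possible because the labels give no replicate number that regions of both labels share. Between the 9 richest and 9 poorest regions, genes higher were 1 with values as deposited, 1 with equal upper quartiles, 3 with equal totals and 9 with housekeeping scaling. Ranking by the plasma protein list gave 3 higher and 13 lower, and ranking by the score without centring, with label as a term, 55 and 71. That ranking made all 9 richest regions knockdown-labelled, with 2 such regions among the poorest. The continuous score gave 75 and 139. Leaving out 1 region gave 0 to 7 higher and 0 to 2 lower. The other alternatives gave 0, TMM included, and so did the rank-sum test, which could hardly call a gene with sets of this size.

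Over 27 regions, genes rising and falling were 219 and 312 with quantile normalization, 43 and 62 with housekeeping scaling, 194 and 694 with the background ratio as a covariate, 21 and 3 in control regions alone, 43 and 37 in knockdown-labelled regions alone, and 48 and 4 without regions 25 and 26. Among genes above background 30 rose. Leaving out 1 region gave 42 to 97 rising and 31 to 185 falling, and the share of rising among called genes was 35.0%, with 50.5% under TMM. The difference between labels was called for 2 genes after background subtraction and for 0 under the other scalings.

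Of single genes, Vim (0.24), Rrm2 (0.075) and Rsad2 (-0.13) reversed in log2 fold change when ranked without centring. Apoe reversed with the macrophage mean as a covariate (-0.026) and in control regions alone (-0.63, with a slope of -0.80), and Vim in knockdown-labelled regions alone (0.078, with a slope of 0.075). With the T and NK cell mean as a covariate the slopes of Vim (0.0033) and Rrm2 (0.0021) reversed, and that of Rrm2 also in knockdown-labelled regions alone (0.0029). With 1 region left out the slope of Vim ran from -0.146 to 0.024, positive without control region 6 alone. The causes were not tested. Many hepatocyte genes lay near background, which limits how low a level can be read.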
